A study of Mus musculus with 26 samples.

Results

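The genes described here are 38 components of the p53 response and of the apoptosis machinery, chosen by name, of the 55341 genes counted in each of 26 RNA-Seq libraries of C2C12 cells, a mouse myoblast line that fuses into myotubes when serum is withdrawn. They comprise p53 itself (*Trp53*) with its ubiquitin ligase regulators *Mdm2* and *Mdm4*, 11 p53 targets of growth arrest, DNA repair and stress, 3 other p53-linked genes, 7 BH3-only genes, 2 BCL-2 family effectors, 3 anti-apoptotic BCL-2 family genes, 2 death receptors, 4 genes of caspases and the apoptosome, and 3 inhibitors of apoptosis proteins. All 38 were matched to 1 gene of the count tables, and 37 passed the filter on low counts in both experiments. The exception was *Birc3*, an inhibitor of apoptosis protein, which reached at most 4 counts in any siRNA library and 6 in any overexpression library.

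Knockdown and overexpression of SMYD3, a lysine methyltransferase, were compared in these cells. In the knockdown experiment, cells were transfected with siCtrl, siSMYD3#1 or siSMYD3#2 while proliferating and again 24 h later, when differentiation was induced. They were collected at confluence, at induction (0 h), and after 24 h in medium with 2% horse serum, with 3 libraries for each of 6 conditions. The 24 h libraries thus follow the second transfection, and whether the 0 h libraries do is not stated. In each condition, 2 libraries came from NucleoSpin-extracted RNA of cells at passage 14 and 1 from TRIzol-extracted RNA of cells at passage 11, so that extraction and passage cannot be told apart. In the overexpression experiment, SMYD3 CL5, which is 1 clone carrying HA-FLAG-tagged SMYD3 from a retrovirus, and cells with the empty vector were collected at the same times, with 2 TRIzol libraries for each of 4 conditions. Whether the libraries of a condition came from separate cultures is stated only as biological replicates, and p-values measure the spread between these libraries.

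Each siRNA library held between 14315193 and 60398170 counts and each overexpression library between 21124675 and 67853386, and the 38 genes took between 0.224% and 0.331% of a library. All 5 myoblast markers (*Myod1*, *Myf5*, *Des*, *Cdh15*, *Chrna1*) were detected above the filter, with a summed level of 350.6 to 2645 CPM (counts per library, scaled to library size), whereas none of 6 markers of leukocytes, endothelium, epithelium, adipocytes and neural crest passed it. The targeted gene, *Smyd3*, had 19.5 ± 1.48 CPM (SD, n = 3) in siCtrl cells at 24 h, 6.82 ± 2.45 (SD, n = 3) with siSMYD3#2 and 16.5 ± 2.40 (SD, n = 3) with siSMYD3#1. By edgeR, the log2 fold change of *Smyd3* against siCtrl was -1.51 (adjusted p = 5.06e-05) for siSMYD3#2 and -0.24 (adjusted p = 0.414) for siSMYD3#1, so that the libraries labelled siSMYD3#1 did not show lower *Smyd3* RNA by this test. *Smyd3* also did not pass the test in SMYD3 CL5 cells, with 22.6 ± 2.36 CPM (SD, n = 2) against 17.7 ± 0.812 (SD, n = 2) in vector cells at 24 h (log2 fold change 0.36, adjusted p = 0.671). The study also assayed SMYD3 by qPCR and western blot in siRNA-treated cells, and the tagged protein by western blot in the clone. Those assays were not examined here.

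p53 is a transcription factor that MDM2 and MDM4 restrain, and its targets include genes that stop the cell cycle, repair DNA or start apoptosis. In the mitochondrial pathway, BH3-only proteins neutralise anti-apoptotic BCL-2 proteins or activate BAX and BAK, which permeabilise the outer mitochondrial membrane; cytochrome c then assembles APAF1 and caspase 9 into the apoptosome. Death receptors such as FAS reach the caspase cascade through caspase 8, and inhibitors of apoptosis proteins hold caspases in check. During myogenesis a share of myoblasts dies, and caspase activity also takes part in differentiation itself.

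p53 binds pairs of a decamer known as the p53 response element, so the promoters of the genes were searched for it to show where these letters stand close to their start sites. RefSeq promoters (GRCm38.p6, 250 bases before to 50 after each start) were matched for 31 of the 38 genes, giving 45 promoters. At least 1 decamer was found in 11 of the 45 promoters (24.4%), belonging to 10 genes, compared to 8.36% of all 32851 promoters. A pair of decamers with at most 13 bases between them was found in 0 of the 45 and in 0.0731% of all promoters. The median GC content was 62% in the 45 promoters and 52.7% in all, and no test was made of these shares. All 10 decamers are printed 5′ to 3′ on the strand of the gene, with the decamer in capitals and 15 bases on either side.
*Trp53* (chr11:69580269-69580308, + strand): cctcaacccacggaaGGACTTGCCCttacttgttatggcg
*Mdm2* (chr10:117710920-117710959, - strand): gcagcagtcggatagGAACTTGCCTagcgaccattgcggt
*Bax* (chr7:45467075-45467114, - strand): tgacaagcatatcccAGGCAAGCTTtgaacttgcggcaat
*Bmf* (chr2:118544776-118544815, - strand): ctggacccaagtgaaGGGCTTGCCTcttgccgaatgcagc
*Ei24* (chr9:36797320-36797359, - strand): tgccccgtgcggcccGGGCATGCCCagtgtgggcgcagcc
*Aen* (chr7:78895922-78895961, + strand): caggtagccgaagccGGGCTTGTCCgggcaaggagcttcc
*Gadd45a* (chr6:67037423-67037462, - strand): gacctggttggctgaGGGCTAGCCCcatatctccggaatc
*Sesn1* (chr10:41887251-41887290, + strand): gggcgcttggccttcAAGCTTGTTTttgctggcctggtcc
*Ccng1* (chr11:40755447-40755486, - strand): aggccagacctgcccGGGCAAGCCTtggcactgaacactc
*Birc2* (chr9:7836772-7836811, - strand): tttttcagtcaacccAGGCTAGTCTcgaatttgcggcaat

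The decamer lay 10 bases before the start site in *Ei24*, 40 in *Gadd45a*, 75 in *Trp53*, between 173 and 213 in *Sesn1*, *Ccng1*, *Mdm2*, *Bax* and *Bmf*, and 11 bases after the start in *Birc2*. The decamer of *Aen* lay in both of its promoters, 11 bases after one start and 121 before the other. A match is only a match of letters. The whole promoter of *Bmf* that holds the decamer (chr2:118544538-118544837, - strand) and that of *Ei24* (chr9:36797285-36797584, - strand) are given because these 2 genes were among the 3 that differed between the siRNAs. *Bmf* has 2 other RefSeq starts, whose promoters held no decamer.
*Bmf*: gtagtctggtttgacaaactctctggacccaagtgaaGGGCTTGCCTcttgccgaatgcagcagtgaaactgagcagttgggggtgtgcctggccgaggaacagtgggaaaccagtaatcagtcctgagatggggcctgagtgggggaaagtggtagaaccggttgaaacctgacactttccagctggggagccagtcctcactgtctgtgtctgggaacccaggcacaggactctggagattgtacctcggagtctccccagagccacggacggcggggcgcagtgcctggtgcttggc
*Ei24*: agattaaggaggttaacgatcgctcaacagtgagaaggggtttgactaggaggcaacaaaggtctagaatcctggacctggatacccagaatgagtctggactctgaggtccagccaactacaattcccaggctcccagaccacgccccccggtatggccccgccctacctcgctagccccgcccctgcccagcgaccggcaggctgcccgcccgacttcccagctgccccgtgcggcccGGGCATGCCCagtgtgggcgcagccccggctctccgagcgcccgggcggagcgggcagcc

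Levels of the genes relative to each other were compared per length, as RPKM (CPM divided by exon length in kilobases), in siCtrl cells at 0 h. The highest mean was that of *Phlda3*, an AKT inhibitor and p53 target, at 155 ± 37.6 RPKM (SD, n = 3), followed by *Ccng1*, which encodes cyclin G1, at 94.2 ± 30.0, *Gadd45g* at 91.2 ± 14.99 and *Bax* at 81.1 ± 17.1 RPKM. *Mcl1* stood at 51.9 ± 3.07 RPKM, *Bak1* at 45.5 ± 5.14 and *Trp53* at 42.9 ± 10.97. Neighbours in this order overlapped within 1 SD, except for *Bax* and *Mcl1*. *Bmf*, *Pmaip1* and *Bcl2* were near 1 RPKM, at 1.15 ± 0.287, 1.15 ± 0.537 and 1.05 ± 0.176, and the lowest genes above the filter were *Perp* at 0.720 ± 0.709 and *Bik* at 0.651 ± 0.384.

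The first comparison asked how the genes moved in differentiating siCtrl cells, at 24 h against 0 h. These cells were transfected again at induction, and the part of that transfection in the values was not tested. Of 37 genes tested, 17 passed edgeR's quasi-likelihood test at an adjusted p under 0.01, 11 of them higher and 6 lower at 24 h. Over all 15820 genes tested, 29.4% passed, 14.6% higher and 14.8% lower. The median log2 fold change of the 37 genes was 0.21 and that of all genes 0.03. The genes with higher RNA were *Bmf*, *Gadd45a*, *Trp53inp2*, *Bcl2l11*, *Trp53inp1*, *Casp12*, *Pmaip1*, *Bbc3*, *Fas*, *Sesn1* and *Birc2*, and those with lower RNA were *Plk2*, *Casp8*, *Mdm2*, *Trp53*, *Bax* and *Mcl1*. In the same libraries all 5 markers of differentiating muscle (*Myog*, *Mymk*, *Myh3*, *Ckm*, *Acta1*) rose, from a summed 3.11 to 5.49 CPM at 0 h to 335 to 1172 CPM at 24 h.

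**Figure D1:**
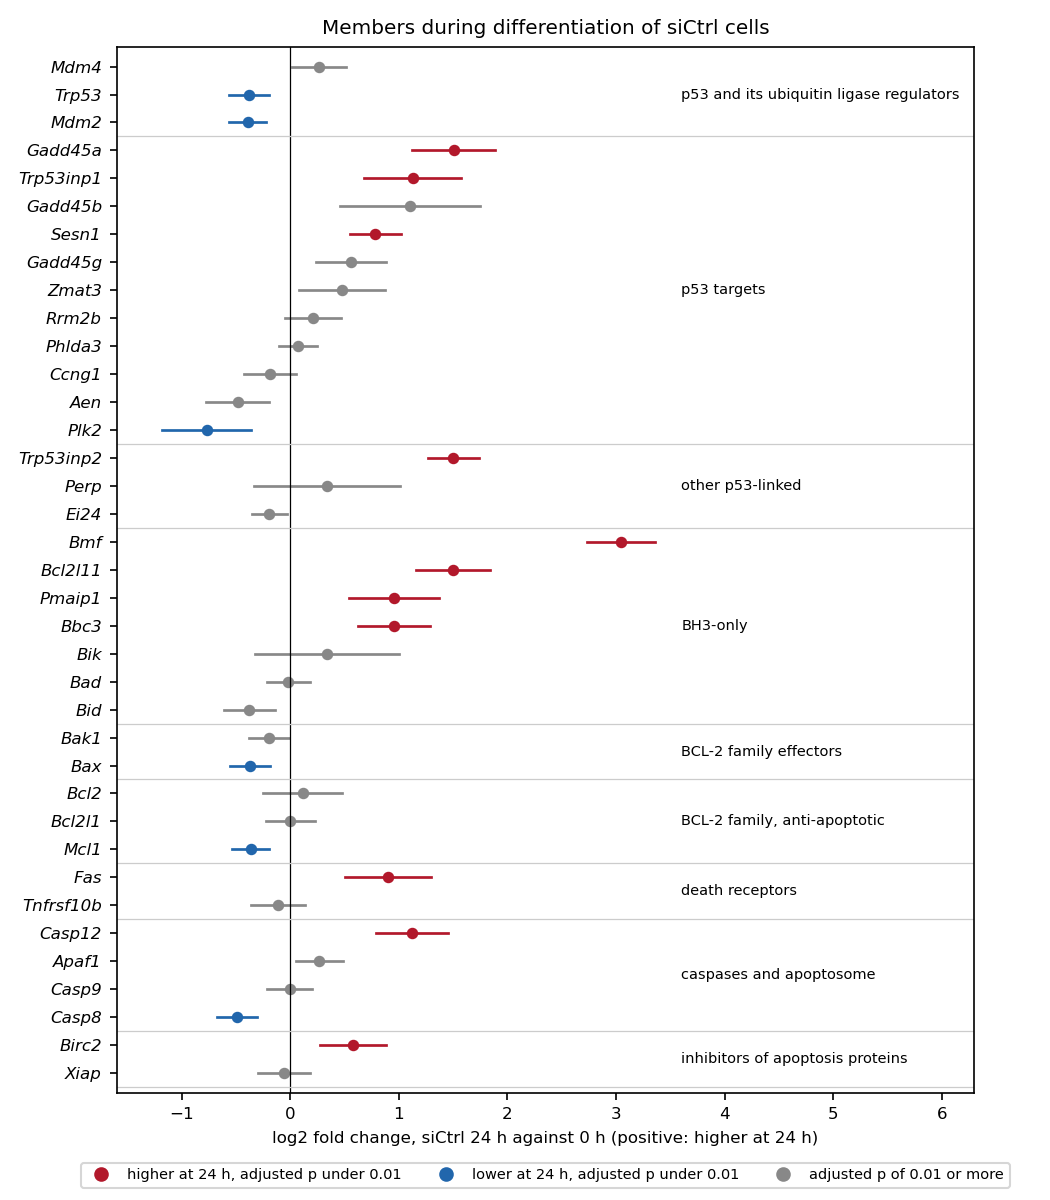
Log2 fold change of the 37 tested genes in siCtrl cells at 24 h against 0 h (points, with approximate 95% intervals as bars), grouped by role; red and blue mark an adjusted p under 0.01 and grey the rest. Among BH3-only genes *Bmf* stands furthest to the right at 3.05, while *Trp53*, *Mdm2*, *Bax* and *Mcl1* lie between -0.39 and -0.36.

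p53 and its main inhibitor were slightly lower at 24 h. *Trp53* had 133, 167 and 221 CPM at 0 h and 115, 120 and 162 CPM at 24 h, with the last value of each set from the TRIzol library, and the groups overlapped (log2 fold change -0.38 ± 0.09 (SE), adjusted p = 2.85e-03). *Mdm2*, itself a p53 target, had 124, 119 and 165 CPM at 0 h and 105, 100.2 and 103 CPM at 24 h, without overlap (log2 fold change -0.39 ± 0.09 (SE), adjusted p = 1.41e-03). In the NucleoSpin libraries alone the difference was -0.37 (adjusted p = 7.33e-03) for *Trp53* and -0.26 (adjusted p = 0.0119) for *Mdm2*, past the threshold for *Trp53* and just short of it for *Mdm2*. *Mdm4* did not pass the test, at 0.26 on the log2 scale (adjusted p = 0.1103). The call of *Trp53* was lost without the 0 h TRIzol library, the second 0 h NucleoSpin library or the first 24 h NucleoSpin library, with adjusted p from 0.0137 to 0.0242.

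Among p53 targets, 3 of 11 rose and 1 fell, when 14.6% of all genes tested were higher and 14.8% lower. *Gadd45a*, a stress sensor of the DNA damage response, had 37.9 and 36.6 CPM in the NucleoSpin libraries and 7.58 in the TRIzol library at 0 h, and 86.6, 82.1 and 35.0 CPM in the same order at 24 h. The groups overlapped because the TRIzol libraries were low at both times, and the rise held within each extraction (log2 fold change 1.51 ± 0.20 (SE), adjusted p = 1.50e-05). *Trp53inp1*, whose product takes part in autophagy and p53 activation, was at 31.3, 24.1 and 70.7 CPM at 0 h and at 61.3, 73.5 and 126 CPM at 24 h (log2 fold change 1.13 ± 0.23 (SE), adjusted p = 9.88e-04). Here the TRIzol libraries were the high ones, and the groups overlapped. *Sesn1*, a sestrin that restrains mTORC1, rose from 29.1, 30.9 and 27.4 CPM to 43.2, 47.9 and 59.3 CPM without overlap (log2 fold change 0.78 ± 0.12 (SE), adjusted p = 3.91e-05).

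*Plk2*, a polo-like kinase, was the target that fell, from 162, 172 and 136 CPM at 0 h to 81.5, 79.3 and 112 CPM at 24 h (log2 fold change -0.77 ± 0.21 (SE), adjusted p = 8.28e-03). All 24 h libraries were below all 0 h libraries, yet the call was lost without any one of the 3 libraries at 0 h or of the 2 NucleoSpin libraries at 24 h (adjusted p from 0.0135 to 0.0513), and blocking on replicate number gave an adjusted p of 0.0112. The 7 other targets did not pass, from *Aen* at -0.48 (adjusted p = 0.0140) to *Gadd45b* at 1.10 (adjusted p = 0.0153) on the log2 scale. The paralog *Gadd45g* was at 0.56 (adjusted p = 0.0114), with no overlap between the times, and *Zmat3*, *Rrm2b*, *Phlda3* and *Ccng1* lay between -0.19 and 0.48. Of the 3 other p53-linked genes only *Trp53inp2*, a regulator of autophagy in muscle, passed, with 90.3, 101 and 48.7 CPM at 0 h and 254, 256 and 162 CPM at 24 h (log2 fold change 1.50 ± 0.12 (SE), adjusted p = 3.98e-08). *Ei24* and *Perp* had log2 fold changes of -0.19 (adjusted p = 0.0724) and 0.34 (adjusted p = 0.454).

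The BH3-only genes held the largest change. *Bmf*, whose product is linked to the cytoskeleton until released, had 7.24 and 6.50 CPM in the NucleoSpin libraries and 4.34 in the TRIzol library at 0 h, and 44.4, 48.4 and 54.8 CPM at 24 h. The groups were far apart, with an 8.27-fold rise (log2 fold change 3.05 ± 0.16 (SE), adjusted p = 1.84e-10). *Bcl2l11*, which encodes BIM, rose from 16.1, 12.5 and 12.1 CPM to 36.6, 39.8 and 38.6 CPM without overlap (log2 fold change 1.50 ± 0.18 (SE), adjusted p = 2.63e-06). *Bbc3*, which encodes PUMA, rose from 11.9, 11.4 and 12.1 CPM to 28.4, 21.8 and 19.1 CPM, also without overlap (log2 fold change 0.95 ± 0.17 (SE), adjusted p = 1.75e-04). *Pmaip1*, which encodes NOXA, was at 4.24, 3.69 and 1.47 CPM and then at 7.63, 7.38 and 2.96 CPM, overlapping through the low TRIzol libraries (log2 fold change 0.96 ± 0.21 (SE), adjusted p = 1.28e-03), and its call was lost without the second 0 h NucleoSpin library (adjusted p = 0.0132). The rest of the BH3-only genes did not pass, with *Bid* at -0.38 (adjusted p = 0.0161), *Bad* at -0.02 (adjusted p = 0.911) and *Bik* at 0.34 (adjusted p = 0.454) on the log2 scale.

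Effectors and anti-apoptotic genes moved little. *Bax* fell by 0.37 (adjusted p = 4.00e-03) and the anti-apoptotic *Mcl1* fell by 0.36 (adjusted p = 2.31e-03) on the log2 scale, both without overlap, while *Bak1* (-0.19, adjusted p = 0.106), *Bcl2* (0.11, adjusted p = 0.652) and *Bcl2l1* (0.00, adjusted p = 0.993) did not pass. Both calls were lost when single libraries were left out, with adjusted p from 0.0118 to 0.0234 for *Bax* (0 h TRIzol, second 0 h NucleoSpin, 24 h TRIzol or first 24 h NucleoSpin) and from 0.0102 to 0.0143 for *Mcl1* (either 0 h NucleoSpin, 24 h TRIzol or second 24 h NucleoSpin). *Bax* was at -0.28 (adjusted p = 0.0234) in the NucleoSpin libraries alone. The ratio of the RPKM sum of *Bax* and *Bak1* to that of *Bcl2*, *Bcl2l1* and *Mcl1* was 1.99 ± 0.14 (SD, n = 3) at 0 h and 1.98 ± 0.12 (SD, n = 3) at 24 h in siCtrl cells, and both sums were lower at 24 h. The ratio was 2.03 ± 0.11 and 2.01 ± 0.10 with siSMYD3#1, and 2.27 ± 0.19 and 2.48 ± 0.34 with siSMYD3#2, where the 2 NucleoSpin libraries at 24 h had 2.66 and 2.69 and the TRIzol library 2.09. No test was made of the ratio.

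The remaining roles were mixed. The death receptor *Fas* had 1.94, 1.85 and 7.55 CPM at 0 h and 3.90, 3.46 and 13.1 CPM at 24 h, so that the TRIzol libraries stood above the others at both times and the groups overlapped (log2 fold change 0.90 ± 0.20 (SE), adjusted p = 1.51e-03). Its call was lost without the second 0 h NucleoSpin library (adjusted p = 0.0123) or the 24 h TRIzol library (adjusted p = 0.0230). *Casp12*, a caspase linked to endoplasmic reticulum stress, rose from 21.2, 16.3 and 9.39 CPM to 36.1, 33.7 and 28.1 CPM without overlap (log2 fold change 1.12 ± 0.17 (SE), adjusted p = 3.69e-05). *Casp8*, the initiator caspase below death receptors, fell by 0.49 on the log2 scale (adjusted p = 3.74e-04), while *Apaf1* (0.27, adjusted p = 0.0558), *Casp9* (-0.01, adjusted p = 0.966) and the receptor *Tnfrsf10b* (-0.11, adjusted p = 0.503) did not pass.

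Among inhibitors of apoptosis proteins, *Birc2*, which encodes cIAP1, rose from 24.5, 21.8 and 19.5 CPM to 24.9, 30.7 and 44.3 CPM (log2 fold change 0.58 ± 0.15 (SE), adjusted p = 5.54e-03), with the TRIzol library showing the largest step. In the NucleoSpin libraries alone *Birc2* was at 0.25 (adjusted p = 0.117), and its call was lost without either TRIzol library or either second NucleoSpin library, with log2 fold changes from 0.33 to 0.60 and adjusted p from 0.0154 to 0.0987. *Xiap* was at -0.06 (adjusted p = 0.734).

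Other genes of the pathway, from lists chosen by name, were read alongside. Over all genes tested in the same comparison, 14.6% were higher and 14.8% lower at 24 h. The counts below are not read as results about the lists. Of 30 other p53 targets tested, 7 were higher and 4 lower at 24 h, led by *Trp53cor1*, the lincRNA-p21 gene, at 2.43, *Cdkn1a*, which encodes the cell-cycle inhibitor p21, at 1.32, *Gtse1* at -1.10 and *Pidd1* at -0.93. *Cdkn1a* had 216, 234 and 322 CPM at 0 h and 622, 669 and 596 CPM at 24 h, without overlap (adjusted p = 1.22e-06). Of 14 regulators of p53 tested, 0 were higher and 4 lower, namely the checkpoint kinases *Chek1* (-1.53), *Atm* (-0.75) and *Atr* (-0.71) and the deubiquitinase *Usp7* (-0.37). Of 28 other apoptosis genes tested, 3 were higher and 8 lower, led by *Birc5* (-1.02), *Bok* (-0.85), *Bnip3* (0.85) and *Cycs* (-0.78). The median log2 fold changes of these 3 lists were 0.20, -0.19 and -0.14 in that order.

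The second set of comparisons asked which of these genes SMYD3 knockdown moved. Both siRNAs were compared with the same siCtrl libraries, so their values stand side by side and no overlap is drawn between them. At 24 h, 2 of 37 genes passed with siSMYD3#1, both higher (5.85% of all genes passed, 2.91% higher and 2.94% lower), and 2 passed with siSMYD3#2, both lower (3.70% of all genes, 1.66% higher and 2.04% lower). At 0 h, 2 passed with siSMYD3#1, both higher (1.43% of all genes, 0.575% higher and 0.853% lower), and 0 with siSMYD3#2 (0.531% of all genes, 0.316% higher and 0.215% lower). For siSMYD3#2 at 0 h, 5 of the 37 and 1596 of all 15820 genes were at an unadjusted p under 0.05, and DESeq2 called 1 of the 37. The 2 of 37 genes at 24 h were thus near the background for either siRNA. At 24 h all 5 markers of differentiating muscle passed as lower with siSMYD3#1 and 4 of 5 with siSMYD3#2; their summed level was 335 to 1172 CPM in siCtrl, 37.5 to 73.2 with siSMYD3#1 and 149 to 174 with siSMYD3#2, and its part in the results below was not tested.

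**Figure D2:**
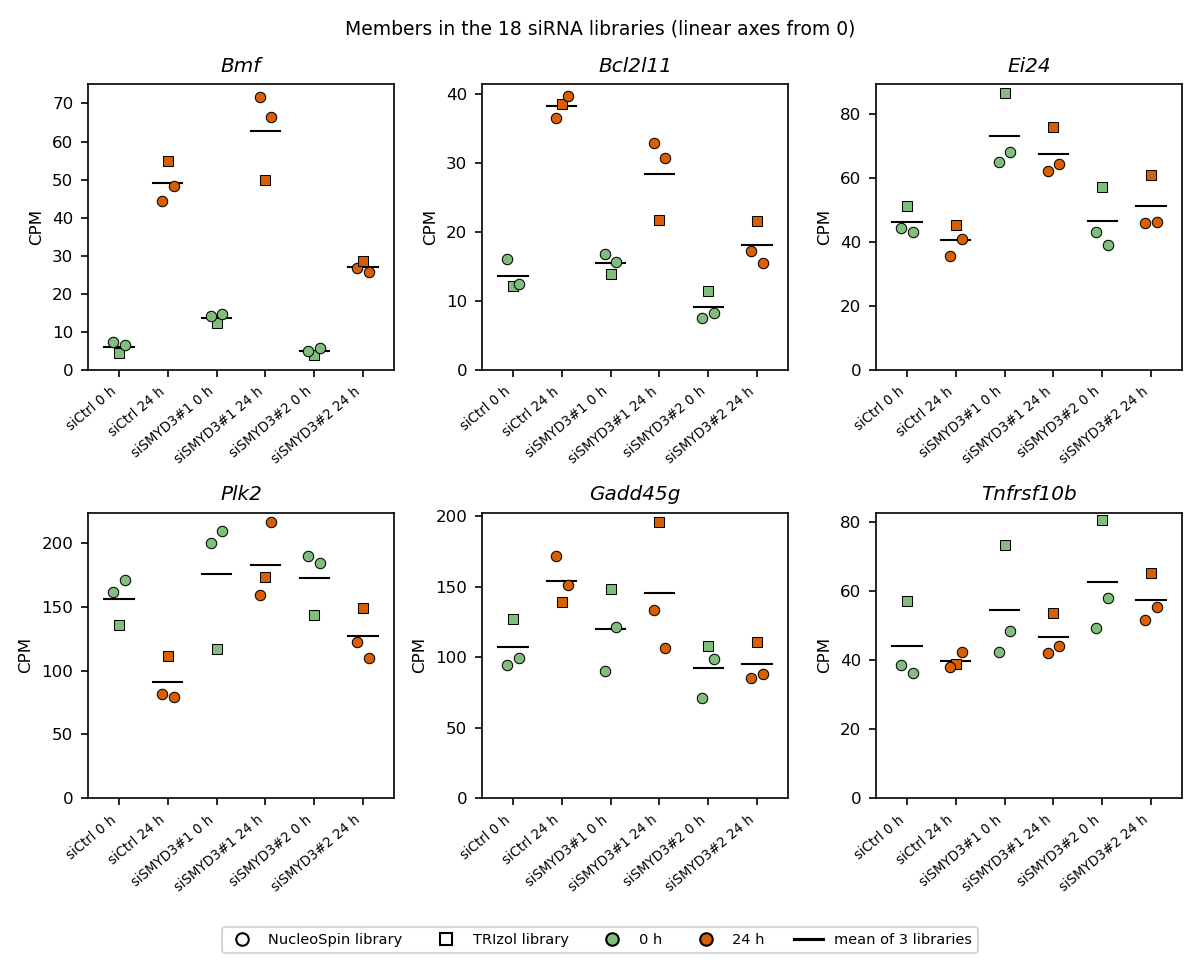
CPM of 6 genes in each of the 18 siRNA libraries (circles NucleoSpin, squares TRIzol, green 0 h, orange 24 h, bars the mean of 3 libraries). *Bmf* at 24 h lies at 44.4 to 54.8 CPM in siCtrl and at 25.6 to 28.7 CPM with siSMYD3#2, and *Ei24* with siSMYD3#1 lies above every siCtrl library at both times.

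*Bmf* moved with both siRNAs, though not in the same way. At 0 h it had 14.2, 14.6 and 12.2 CPM with siSMYD3#1 against 7.24, 6.50 and 4.34 CPM in siCtrl, so that all 3 libraries were above the controls (log2 fold change 1.18 ± 0.16 (SE), adjusted p = 2.64e-04). With siSMYD3#2 it was at 4.99, 5.73 and 3.86 CPM at 0 h and did not pass (-0.31). At 24 h it had 71.6, 66.6 and 49.8 CPM with siSMYD3#1, overlapping siCtrl (44.4, 48.4 and 54.8 CPM) through the TRIzol library, and did not pass (0.33, adjusted p = 0.169). With siSMYD3#2 it had 26.6, 25.6 and 28.7 CPM at 24 h, below every control library (log2 fold change -0.87 ± 0.15 (SE), adjusted p = 1.08e-03). That call was lost without the 24 h siCtrl TRIzol library or either siSMYD3#2 NucleoSpin library, with log2 fold changes from -0.82 to -0.64 and adjusted p from 0.0112 to 0.0156. In the NucleoSpin libraries alone the 0 h value with siSMYD3#1 was 1.08 (adjusted p = 3.03e-05) and the 24 h value with siSMYD3#2 was -0.83 (adjusted p = 5.15e-05).

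*Bcl2l11* fell with siSMYD3#2 at 24 h. It had 17.3, 15.5 and 21.6 CPM against 36.6, 39.8 and 38.6 CPM in siCtrl, without overlap (log2 fold change -1.07 ± 0.18 (SE), adjusted p = 8.95e-04), and the adjusted p was 0.0102 without the second siSMYD3#2 NucleoSpin library. With siSMYD3#1 it had 32.9, 30.7 and 21.8 CPM, also below every control library, but did not pass (-0.43, adjusted p = 0.122). At 0 h, *Bcl2l11* was at 0.19 with siSMYD3#1 and at -0.59 (adjusted p = 0.167) with siSMYD3#2. The other BH3-only genes did not pass with either siRNA at either time.

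*Ei24*, a p53-induced gene whose product sits in the endoplasmic reticulum, rose with siSMYD3#1 at both times. At 0 h it had 65.0, 68.2 and 86.7 CPM against 44.5, 43.2 and 51.2 CPM in siCtrl (log2 fold change 0.66 ± 0.08 (SE), adjusted p = 1.36e-04). At 24 h it had 62.2, 64.5 and 76.0 CPM against 35.6, 41.0 and 45.2 CPM (log2 fold change 0.73 ± 0.08 (SE), adjusted p = 1.25e-05). All siSMYD3#1 libraries were above all siCtrl libraries at each time, and both calls stayed under each library left out. With siSMYD3#2, *Ei24* was at -0.01 at 0 h, and at 24 h had 46.1, 46.3 and 61.0 CPM, above the controls without passing (0.33, adjusted p = 0.0195).

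*Plk2* had 159, 217 and 173 CPM with siSMYD3#1 at 24 h against 81.5, 79.3 and 112 CPM in siCtrl, without overlap (log2 fold change 1.00 ± 0.21 (SE), adjusted p = 5.71e-03). The call was lost without either 24 h siCtrl NucleoSpin library, the siSMYD3#1 TRIzol library or the second siSMYD3#1 NucleoSpin library (log2 fold changes from 0.87 to 1.00, adjusted p from 0.0250 to 0.0452). With siSMYD3#2, *Plk2* had 123, 110 and 149 CPM at 24 h and did not pass (0.48, adjusted p = 0.181).

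Several genes missed the threshold against siCtrl, and none of those named next passed in siSMYD3#1 against siSMYD3#2 (adjusted p from 0.0317 to 0.545). With siSMYD3#2 at 24 h, *Gadd45g* had 85.4, 88.2 and 111 CPM against 171, 151 and 139 CPM (-0.73, adjusted p = 0.0105), with no overlap, and was at -0.13 with siSMYD3#1. In the same comparison *Tnfrsf10b* had 51.6, 55.4 and 65.2 CPM against 37.998, 42.2 and 38.8 CPM (0.52, adjusted p = 0.0165), also with no overlap, and was at 0.21 with siSMYD3#1. With siSMYD3#1 at 24 h, *Trp53inp1* had 41.2, 49.0 and 55.1 CPM against 61.3, 73.5 and 126 CPM (-0.76, adjusted p = 0.0432), and was at -0.49 with siSMYD3#2. *Gadd45b* had 8.91, 8.42 and 17.5 CPM with siSMYD3#2 at 24 h against 28.2, 28.5 and 16.7 CPM in siCtrl, low in both NucleoSpin libraries and not in the TRIzol library (-1.23, adjusted p = 0.0379), and was at -0.21 with siSMYD3#1. *Gadd45g* passed under DESeq2 (adjusted p = 5.71e-04) and in the NucleoSpin libraries alone (-0.90, adjusted p = 1.35e-03), and *Tnfrsf10b* passed under DESeq2 (adjusted p = 2.86e-03). *Trp53* and *Mdm2* stayed between -0.08 and 0.13 with either siRNA at either time, and their adjusted p were all above the threshold.

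The siRNAs were also set against each other at 24 h, where 3 of 37 genes passed, 2 higher and 1 lower with siSMYD3#1 (3.36% of all genes, 2.05% higher and 1.31% lower). *Bmf* was higher with siSMYD3#1 than with siSMYD3#2 (1.20 ± 0.15 (SE), adjusted p = 8.19e-05), as was *Ei24* (0.41 ± 0.08 (SE), adjusted p = 4.87e-03). *Aen*, a p53-induced exonuclease, was lower with siSMYD3#1, with 24.8, 27.9 and 54.5 CPM against 44.1, 47.7 and 72.1 CPM (-0.67 ± 0.15 (SE), adjusted p = 9.44e-03); the order held within each extraction, while the groups overlapped across them. The calls of *Aen* and *Ei24* were lost when single libraries were left out, 5 of 6 for *Aen* (all but the siSMYD3#2 TRIzol library, adjusted p from 0.0115 to 0.0590) and 4 of 6 for *Ei24* (each NucleoSpin library, adjusted p from 0.0201 to 0.0320). Whether an siRNA acted differently at 24 h than at 0 h was tested as an interaction, and 0 of 37 genes passed for siSMYD3#1 (0.215% of all genes, 0.0442% raised and 0.171% lowered) or siSMYD3#2 (0.0190% of all genes, all lowered). At an unadjusted p under 0.05 there were 3 and 7 of the 37 genes by edgeR, against 1388 and 1585 of all 15820. DESeq2 called 0 and 0 of the 37, and the smallest adjusted p was that of *Bmf* with siSMYD3#1 (-0.86, adjusted p = 0.0844).

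Of the other lists, 0 of 30 other p53 targets passed with siSMYD3#1 at 24 h and 4 with siSMYD3#2, *Dcxr* (-0.91), *Cdkn1a* (-0.80) and *Btg2* (-0.47) lower and *Gtse1* (0.48) higher. Over all genes, 5.85% passed with siSMYD3#1 at 24 h and 3.70% with siSMYD3#2. *Cdkn1a* had 331, 330.2 and 438 CPM with siSMYD3#2 and 469, 435 and 418 CPM with siSMYD3#1 at 24 h, both below the 596 to 669 CPM of siCtrl (adjusted p = 1.56e-03 and 0.0232). Of 14 regulators of p53, *Rchy1*, a p53 ubiquitin ligase, was lower with siSMYD3#1 at 24 h (-0.57) and 0 h (-0.70), and *Atr* was higher with siSMYD3#2 at 24 h (0.52 against siCtrl), also when siSMYD3#1 was set against siSMYD3#2 (-0.55). Of 28 other apoptosis genes, 0 passed with either siRNA at 24 h and *Dffa*, the inhibitor of the caspase-activated DNase, was higher with siSMYD3#2 at 0 h (0.90).

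**Figure D3:**
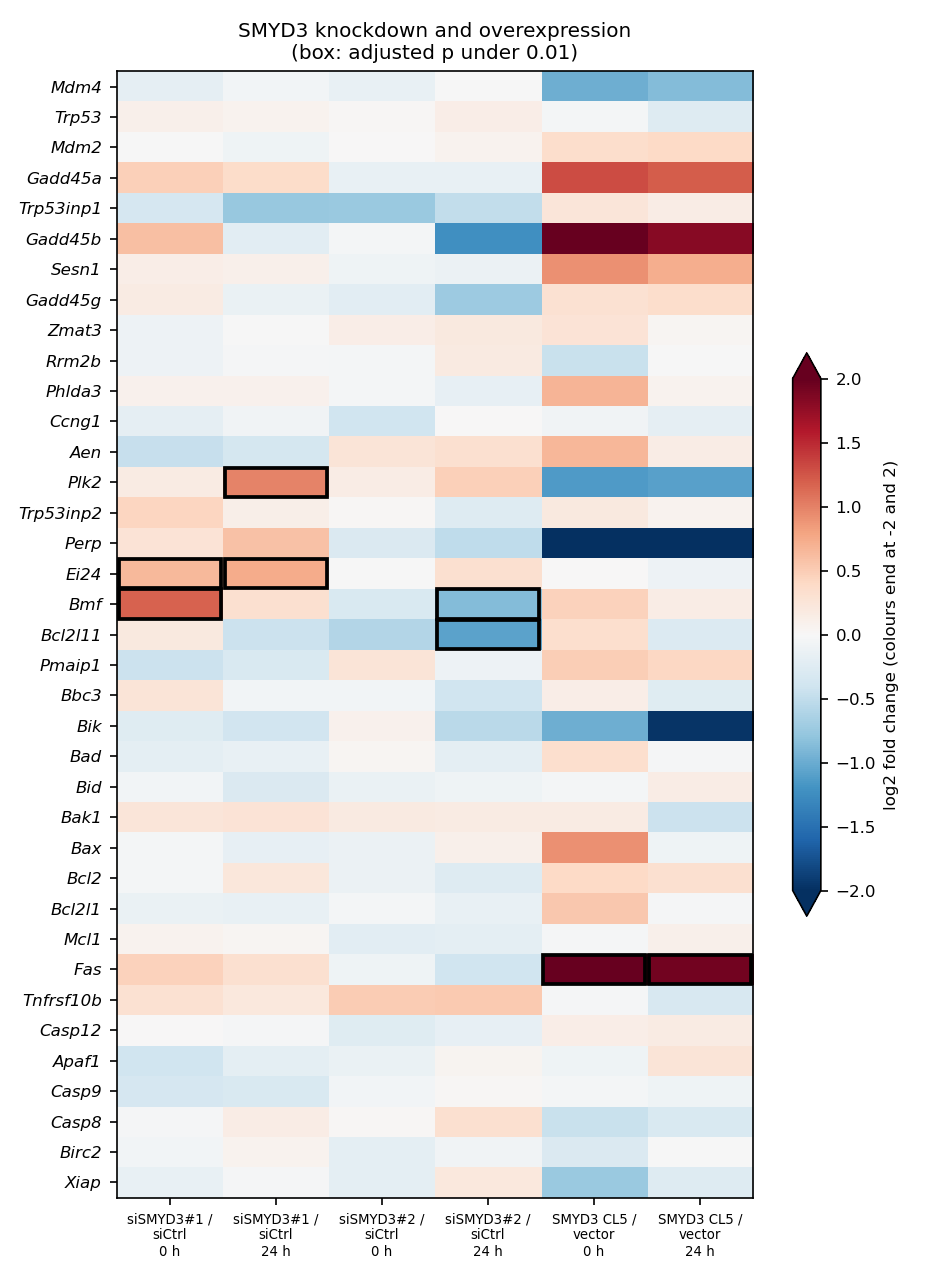
Log2 fold change of the 37 tested genes (rows) with each siRNA against siCtrl and in SMYD3 CL5 against vector at 0 h and 24 h (columns), red higher and blue lower, colours ending at -2 and 2. Boxes mark an adjusted p under 0.01: *Plk2*, *Ei24*, *Bmf* and *Bcl2l11* in the siRNA columns and *Fas* in both SMYD3 CL5 columns.

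Extraction and passage moved more of the genes than either siRNA. Of the 37 genes, 25 differed between TRIzol and NucleoSpin libraries in the same fit, 17 higher and 8 lower with TRIzol, when 51.3% of all genes passed, 26.1% higher and 25.3% lower. The largest differences were those of *Perp* (2.49), *Gadd45a* (-1.84), *Pmaip1* (-1.52), *Fas* (1.51), *Bik* (-1.25) and *Trp53inp1* (1.05) on the log2 scale. *Zmat3*, a p53 target that binds RNA, was at 126 to 174 CPM in the 6 TRIzol libraries and at 47.2 to 106 CPM in the 12 NucleoSpin libraries. Each siRNA condition holds both extractions in the same numbers, and 4 myoblast markers were lower in the TRIzol libraries.

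**Figure D4:**
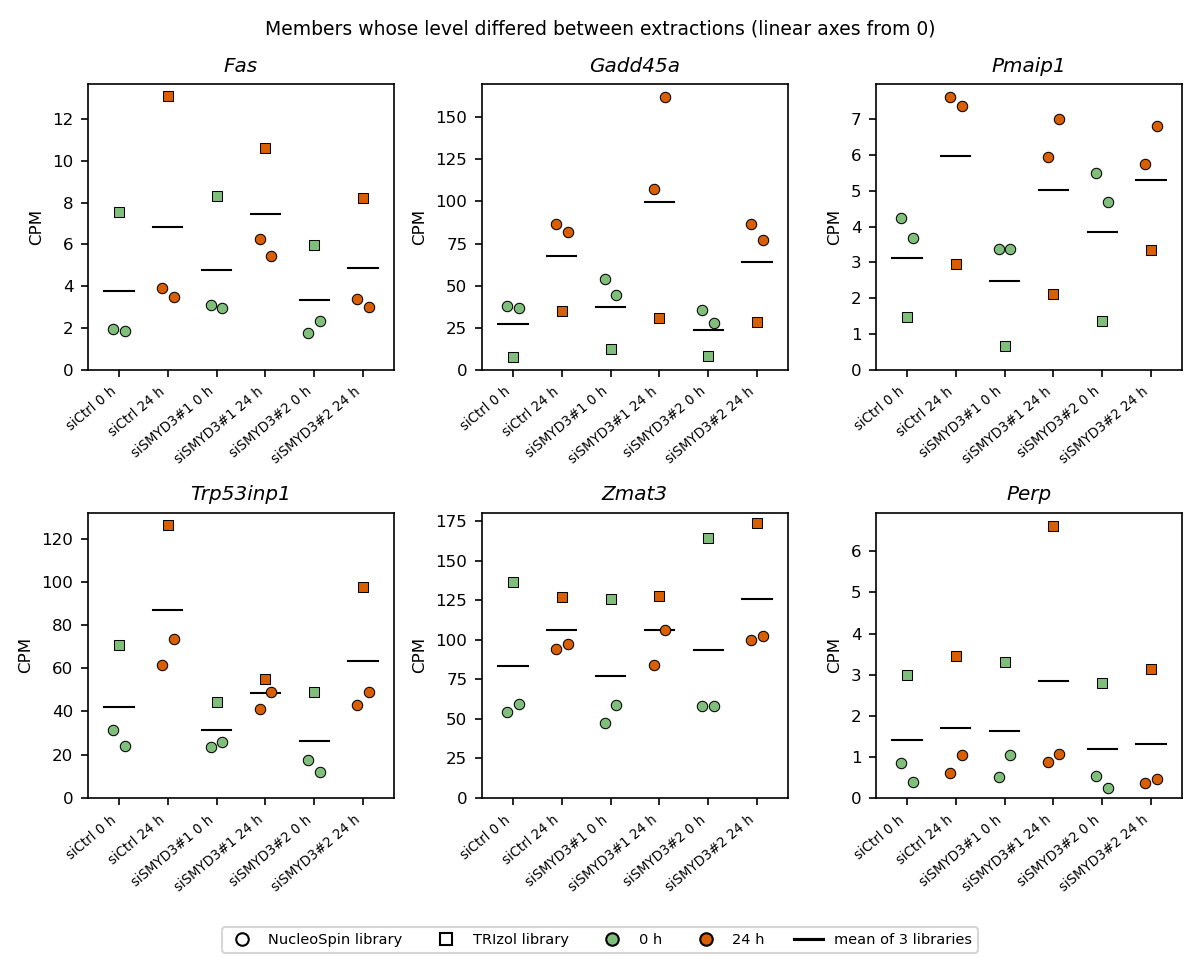
CPM of 6 genes in the 18 siRNA libraries, drawn as in the plot of *Bmf* and *Ei24*. The TRIzol libraries (squares) are above both NucleoSpin libraries (circles) in every condition for *Fas* and *Perp* and below them in every condition for *Gadd45a* and *Pmaip1*.

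The third comparison asked what SMYD3 overexpression moved. In SMYD3 CL5 against vector cells, 1 of 37 genes passed at 24 h (0.964% of all genes, 0.376% higher and 0.589% lower) and 1 at 0 h (1.07% of all genes, 0.465% higher and 0.606% lower), and it was *Fas* at both times. *Fas* had 13.3 and 16.0 CPM in SMYD3 CL5 cells against 3.39 and 4.23 CPM in vector cells at 24 h (log2 fold change 1.94 ± 0.26 (SE), adjusted p = 9.68e-03), and 17.9 and 22.0 against 4.46 and 4.92 CPM at 0 h (log2 fold change 2.09 ± 0.26 (SE), adjusted p = 7.33e-03). Every SMYD3 CL5 library was above the vector libraries of its time. With any 1 of the 4 libraries left out the 24 h value did not pass, at log2 fold changes from 1.78 to 2.15 and adjusted p from 0.0504 to 0.138, and the 0 h value did not pass without either vector library, at 2.08 and 2.16 and adjusted p of 0.105 and 0.0997. At 24 h the adjusted p with DESeq2's size factors was 0.0104. SMYD3 CL5 is 1 clone, so a difference of the clone and an effect of SMYD3 cannot be told apart.

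*Perp*, a membrane protein of desmosomes and a p53 target, went the other way. Its counts in vector cells were 28 and 41 at 0 h and 16 and 45 at 24 h, whereas SMYD3 CL5 cells had 0 counts in both libraries at 0 h and 2 and 0 at 24 h. *Perp* passed the filter on low counts only through the vector libraries, where it is high. The values that follow describe its counts and add no independent support for a difference. At 0 h the level was at least 12.046-fold lower in SMYD3 CL5, with each of its libraries set to a floor of 3 counts, and at 24 h the ratio of vector to SMYD3 CL5 was 20.3 with a 95% interval of 5.39 to 172, which covers counting error only. By edgeR it did not pass the threshold at 0 h (adjusted p = 0.0169) or at 24 h (adjusted p = 0.0557), and under DESeq2 it passed at 0 h (adjusted p = 1.70e-04).

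*Gadd45b* had 33.0 and 81.7 CPM in SMYD3 CL5 against 11.02 and 14.8 CPM in vector cells at 0 h (2.15, adjusted p = 0.0364) and 39.7 and 45.7 against 12.2 and 11.9 CPM at 24 h (1.83, adjusted p = 0.0640). *Gadd45a* was also above the vector libraries at both times (1.31 and 1.21, adjusted p = 0.0893 and 0.125), as was *Sesn1* (0.92 and 0.73, adjusted p = 0.0988 and 0.212), and *Plk2* was below them at both (-1.14 and -1.08, adjusted p = 0.0699 and 0.0940). *Trp53* (-0.04 at 0 h, -0.25 at 24 h) and *Mdm2* (0.35 and 0.40) did not pass. *Gadd45b* passed at 0 h under DESeq2 (adjusted p = 2.65e-05).

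**Figure D5:**
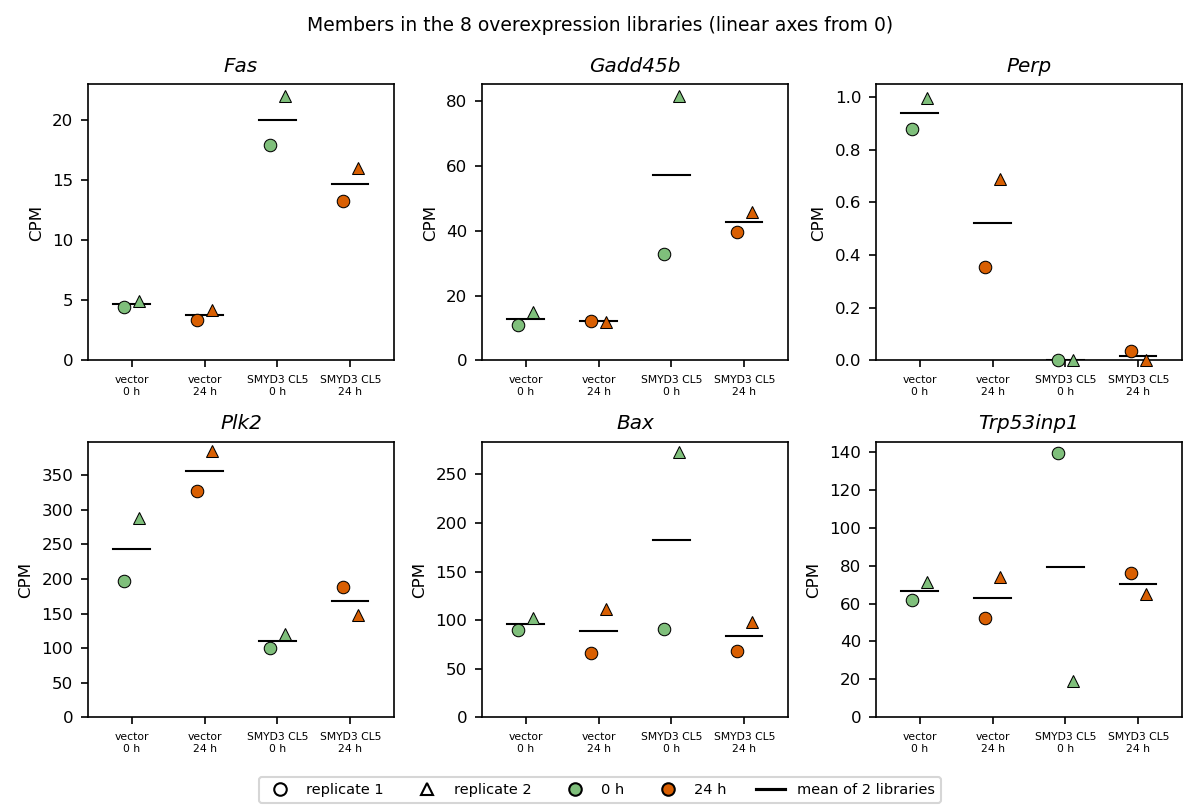
CPM of 6 genes in the 8 overexpression libraries (circles replicate 1, triangles replicate 2, bars the mean of 2 libraries). *Fas* in SMYD3 CL5 lies at 13.3 to 22.0 CPM against 3.39 to 4.92 CPM in vector cells, and the SMYD3 CL5 libraries at 0 h lie apart for *Bax* (91.1 and 273 CPM) and *Trp53inp1* (139 and 19.0 CPM).

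In these genes, the 2 SMYD3 CL5 libraries at 0 h differed from each other more than the pair of any other overexpression condition. Of 36 genes compared, 11 differed by more than 2-fold between them, with a median of 1.58-fold, compared to 1 gene at 24 h and 0 in vector cells at either time. The share over all genes was not computed, so whether this spread is particular to these genes is not shown. *Trp53inp1* was at 139 and 19.0 CPM, *Xiap* at 111 and 24.0, *Rrm2b* at 32.0 and 8.94 and *Bax* at 91.1 and 273. The ratio of *Bax* and *Bak1* to *Bcl2*, *Bcl2l1* and *Mcl1* was 1.27 and 3.06 in these libraries and between 0.952 and 1.59 in the other 6. Leaving out either of them leaves 1 library in the condition, so no count of passing genes is read from such a fit. The markers of differentiating muscle summed to 68.7 and 409 CPM in the SMYD3 CL5 libraries at 0 h against 2.32 and 4.65 CPM in vector cells, and their part in these values was not tested.

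Within the overexpression experiment 24 h was also set against 0 h. No gene passed in vector cells or in SMYD3 CL5 cells by edgeR, and 0 of all 17835 genes did (0%). The 5 markers of differentiating muscle did not pass either, at a median log2 fold change of 3.99 in vector cells and 1.86 in SMYD3 CL5 cells. With 2 libraries in each condition, the lack of calls is not read as absence of change. DESeq2 called 3 and 0 of the 37 genes, and its calls over all genes are not given here. At an unadjusted p under 0.05 by edgeR there were 6 and 7 of the 37 genes, against 1256 and 1137 of all 17835. In vector cells the 6 were *Gadd45a* (1.64), *Casp12* (1.18), *Trp53inp2* (1.12), *Bmf* (1.12), *Pmaip1* (0.95) and *Sesn1* (0.81). They were picked by p in these same libraries, so the order of the libraries is no further support. *Bmf* had 11.99 and 14.6 CPM at 0 h and 25.4 and 32.4 CPM at 24 h. The interaction of clone and time passed for 0 genes (0%). At an unadjusted p under 0.05 there were 0 of the 37 and 312 of all 17835 genes, and DESeq2 called 0 of the 37. Of other p53 targets *Cyfip2* was higher in SMYD3 CL5 at 0 h (2.75, adjusted p = 7.14e-03), and no other gene of these lists passed in SMYD3 CL5 against vector at either time, with *Cdkn1a* at 0.28 at 0 h and 0.11 at 24 h.

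The counting of some of these genes carries a limit. Exons of *Bax* share 192 bases with the gene model *Gm45808* on the same strand, and exons of *Ei24*, *Gadd45a*, *Bak1*, *Bcl2*, *Bid*, *Bad*, *Casp9* and *Rrm2b* overlap an antisense gene by between 188 and 734 bases, so that their counts may hold or lose reads of the partner. Fewer cells of a kind and less RNA per cell cannot be told apart in these bulk libraries.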

How the data were processed

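RNA-Seq was performed on 26 libraries of C2C12 cells (TruSeq Stranded mRNA, paired-end reads). The authors aligned reads with HISAT2 2.1.0 to GRCm38 after FastQC 0.11.5 and deposited raw counts per gene from featureCounts (Subread 1.6.3), with tools and versions from the submitters' processing notes; the strand setting, annotation release and treatment of multi-mapped reads are not given in the sources used here. Genes were located with GENCODE M21 (54495 of 55341 found), and promoter sequences were taken from RefSeq (GRCm38.p6).

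Genes kept by filterByExpr (15820 and 17835) were normalised by TMM and tested with edgeR 4.0.16's quasi-likelihood test in R 4.3.3, with Benjamini-Hochberg adjustment over all genes kept and calls at 0.01. For the siRNAs 1 model held 18 libraries, 6 conditions and extraction as a covariate, and for overexpression another held 8 libraries and 4 conditions. Levels are CPM over TMM-scaled library sizes, scaled separately in each experiment; SE is the log2 fold change divided by the root of F. No libraries were identical (0 pairs). The interval and floor (3 counts) given for *Perp* cover counting error only. The bars in the plot of siCtrl fold changes are drawn from the SE and so carry the spread between libraries. The edgeR and DESeq2 1.42.0 steps were tested on simulated data. Alternatives were DESeq2, its size factors, no filter, a threshold of 0.05, 1 fit of all 26 libraries, no extraction covariate, NucleoSpin libraries alone, a replicate block and each library left out. The alternatives for the extraction comparison were chosen after seeing the data.

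Replicate numbers came from the study's sample table. Deviations of same-numbered siRNA libraries correlated in all 15 pairs (0.412 to 0.851), which includes the difference in extraction and passage that the numbers carry. Among NucleoSpin libraries alone the 10 values were 0.017 to 0.177. With 2 NucleoSpin libraries in each condition, replicates 1 and 2 necessarily give the same value, so the 10 values repeat in pairs. The numbers were taken to pair the samples by extraction and passage, and pairing within the NucleoSpin libraries was not shown. The genes and lists were chosen with earlier results of these data known. For each comparison the text gives full statistics for at most 12 passing genes, those with the largest change, and for *Trp53* and *Mdm2*. From each of the other lists at most 4 passing genes with the largest change are named, and *Cdkn1a* and *Smyd3* are given whatever their test; another gene of this rule is not reported here. Genes given with values although they missed the threshold were chosen after their values were seen.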

Additional observations from a re-analysis of the deposited data

Results flagged for a closer look

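At 24 h the effects of the siRNAs, which share the siCtrl libraries, differed for 3 genes by edgeR's test of siSMYD3#1 against siSMYD3#2. The log2 difference was 1.20 for *Bmf* (adjusted p = 8.19e-05), higher in 3 of 3 siSMYD3#1 libraries than in any siSMYD3#2 library, and 0.41 for *Ei24* (adjusted p = 4.87e-03), also higher in 3 of 3. It was -0.67 for *Aen* (adjusted p = 9.44e-03), lower within each extraction, with overlap across extractions. *Smyd3* RNA was 1.27 higher on the log2 scale in the libraries labelled siSMYD3#1 than in those of siSMYD3#2 (adjusted p = 1.76e-04), and its part in these differences was not tested.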

How the results depend on the processing

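No call reversed under any alternative run. Of 28 calls, DESeq2 lost 0, its size factors in edgeR 2, no filter 1, NucleoSpin libraries alone 3 of 26, all 26 libraries in 1 fit 11, no extraction covariate 20 of 26, and leaving out some library 14. Counts of the 37 genes passing moved as follows, with causes not tested. For most alternatives the number of all genes passing is not given here, so a changed count is not read as a result about the 37 genes. For siCtrl 24 h against 0 h (17), 1 fit gave 10, no covariate 5 and leaving out 1 library 10 to 16 (all genes 4655, against 2838 in 1 fit and 1676 without the covariate). For siSMYD3#1 against siCtrl at 24 h (2), no covariate gave 0, NucleoSpin alone 6 and leaving out 1 library 1 to 2; at 0 h (2), no filter gave 6 and no covariate 0. For siSMYD3#2 at 24 h (2), no filter gave 7, a threshold of 0.05 7, 1 fit 0, no covariate 0, NucleoSpin alone 6, DESeq2 6 and leaving out 1 library 0 to 3; at 0 h (0), no filter gave 3, NucleoSpin alone 2 and DESeq2 1. For siSMYD3#1 against siSMYD3#2 (3), no filter gave 7, a threshold of 0.05 6, 1 fit 1, no covariate 1, NucleoSpin alone 10, DESeq2 6 and leaving out 1 library 1 to 5. For the siSMYD3#1 interaction (0), no filter and NucleoSpin alone gave 2 each; for that of siSMYD3#2 (0), each gave 1, and leaving out 1 library 0 to 1 (1 without the siCtrl 24 h TRIzol library). For SMYD3 CL5 against vector at 24 h (1), DESeq2's size factors gave 0, no filter 4, 1 fit 6, DESeq2 2 and leaving out 1 library 0; at 0 h (1), no filter gave 4, a threshold of 0.05 3, 1 fit 7, DESeq2 4 and leaving out 1 library 0 to 8. For vector 24 h against 0 h (0), no filter gave 1, 1 fit 4 and DESeq2 3; for SMYD3 CL5 (0), no filter gave 1, 1 fit 3 and leaving out 1 library 0 to 7 (7 without the first 0 h library). The median ratio of effector to anti-apoptotic genes over the 18 siRNA libraries was 2.09 and, from raw counts without length, 1.06. Where a library left out leaves 1 in a condition, it is assumed to vary like the others. With the replicate block, 16 of 37 genes passed in siCtrl cells (without *Plk2*), and no other call of these genes changed; among the overexpression libraries, which share only a number, correlations ran from -0.097 to 0.483, and 1 gene still passed at each time. Genes under about 1 CPM, such as *Perp* and *Bik*, are limited by depth.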
